A study of Sus scrofa with 12 samples.

Results

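Interleukins are secreted signalling proteins through which leukocytes, epithelium and stroma address each other, and interleukin receptors are the membrane proteins that read them. The genes described here are all genes of the deposited endometrial table whose symbol is IL followed by a digit. There were 78 such genes of 20674, and they comprised 39 receptor chains, 36 ligands, 2 soluble binding proteins (IL18BP and IL22RA2) and 1 enzyme that carries an interleukin name (IL4I1, an amino acid oxidase). RNA was sequenced from endometrium of Landrace × Yorkshire sows fed from breeding through 114 days of gestation. The L − N group received a diet with 3.73% crude fiber, and the L + N group received the same diet with 0.05% N-carbamylglutamate (NCG), an analog of N-acetylglutamate that activates arginine synthesis. The H − N group received 7.46% crude fiber, and the H + N group received 7.46% crude fiber with 0.05% NCG. Each group had 3 libraries, 12 in all. The labels do not tie a library to a sow, so p-values measure the spread between these libraries.

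Most interleukins act through receptors built from a ligand-binding chain and a chain shared by several ligands. The shared chain gp130, encoded by IL6ST, serves interleukins 6 and 11, the common gamma chain IL2RG serves interleukins 2, 4, 7 and 15, and IL1RAP serves interleukins 1 and 33. Class I and II receptors signal through JAK kinases and STAT factors, whereas receptors of the interleukin-1 and interleukin-17 families signal through adaptor proteins to NF-κB. In the uterus these signals take part in implantation, in the tolerance of the conceptus and in the changes that precede parturition.

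The libraries held 14369781 to 19309724 counts each, and a value of 3 counts, taken as the floor of detection, was 0.146 to 0.208 CPM, the count scaled by library size. Markers of the tissue were present, since ESR1, PGR, HOXA10, HOXA11 and MSX1, all 7 epithelial markers and all 6 stromal markers were above that floor in every library. Of 6 mast cell and eosinophil markers, KIT, HDC and MS4A2 were above it in every library and CPA3 in none. Of the 5 neutrophil markers present, CSF3R was above it in every library and MPO in none. The L − N libraries differed among themselves. Their summed level of 9 macrophage markers was 1295, 3395 and 3531 CPM in replicates 1, 2 and 3, against 684 to 1639 CPM in the other 9 libraries. The summed level of 5 general leukocyte markers was 589.9, 1345 and 1256 CPM against 535 to 897 CPM. The 5 endometrial markers summed to 647 to 769.7 CPM in L − N and to 1008 to 2005 CPM elsewhere. In a whole tissue, fewer cells of a type and less RNA per cell cannot be told apart.

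Most reads on interleukin genes came from receptors. The 78 genes received 16744 to 28439 reads per library, or 0.108% to 0.147% of all counts, and receptors held 83.6% of them against 14.3% for ligands. Compared per length as deposited FPKM (fragments scaled by gene length and library total), receptors had a median of 1.07 and ligands of 0.198 over the 12 libraries. A mean FPKM of at least 1 was reached by 21 of 39 receptors and 9 of 36 ligands, and a mean of at least 5 by 16 receptors and 2 ligands.

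The most abundant member per length was IL13RA1, a binding chain for interleukin-13, with a mean FPKM of 65.6. This value rests on a gene model of 1272 bases, and in CPM the gene ranged from 61.1 to 116. IL1R1, the signalling receptor of interleukin-1, followed at 26.6 FPKM and IL6ST at 26.0 FPKM. The next places were held by IL10RA at 18.1, IL27RA at 18.1, IL10RB at 17.5 and IL11RA at 16.6 FPKM, all of them chains of class I or II cytokine receptors. IL18, made as an inactive precursor in epithelium and macrophages, was the only ligand among the first 10 by FPKM, at 14.3. IL17RA, the shared chain of interleukin-17 receptors, and IL2RG completed these 10 at 12.8 and 11.6 FPKM. IL2RG overlaps MED12 in the annotation, and since the strand setting of the counting is not given, its value may include reads of that neighbor. IL33, an alarmin stored in nuclei, was the other ligand above 5 FPKM, at 9.68.

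**Figure D1:**
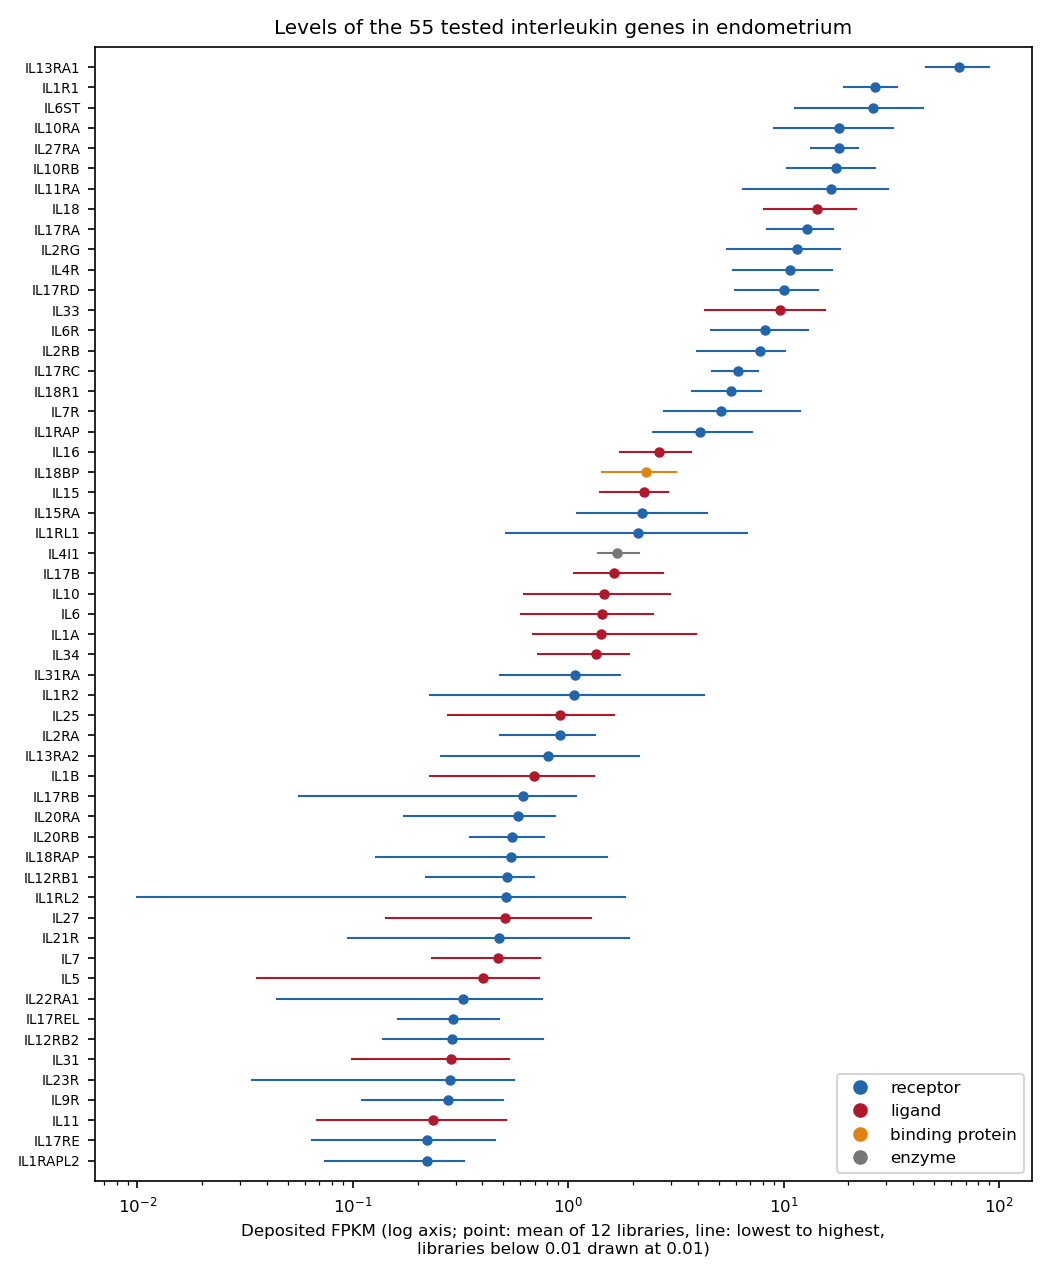
Deposited FPKM (log axis) of the 55 tested interleukin genes, ordered by level and colored by role, with a point at the mean of the 12 libraries and a line from the lowest to the highest library. Receptors fill 9 of the first 10 places, IL13RA1 stands highest at 65.6 and IL18 is the highest ligand at 14.3.

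Many ligands had few or no counted reads. IL9, IL21, IL22 and IL1B2 had 0 reads in all 12 libraries, which allows up to 3 counts, or 0.146 to 0.208 CPM, in each, by counting error alone. IL1B2 is the interleukin-1 beta gene that the elongating pig conceptus expresses early in pregnancy. The 6 further loci annotated as interleukin-1 beta-like also had 0 reads, whereas IL1B itself was counted at 7 to 40 reads per library. Whether reads that align to several of these similar loci were left out of the counts was not tested. In all, 10 members, each a ligand, never exceeded 3 reads. The filter on low counts kept 55 of the 78 members for testing, 37 of 39 receptors, 16 of 36 ligands, IL18BP and IL4I1. The 23 members left out were 20 ligands, 2 receptors and IL22RA2, among them IL4, IL13, IL12A, IL12B, IL17A and IL23A.

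Interleukin genes lay in clusters on Sscrofa11.1. There were 30 members within 100000 bases of another member, in 20 pairs. On chromosome 3 lay 6 receptor genes of the interleukin-1 family, IL18RAP, IL18R1, IL1RL1 and IL1RL2 from 51762111 to 52011607 and the pair of IL1R1 and IL1R2 from 52192912 to 52406393. On chromosome 16, IL6ST lay 29936 bases from IL31RA on the opposite strand. Elsewhere on chromosome 3, IL4R lay 37141 bases from IL21R on the same strand. Of these neighbors, IL6ST and IL4R passed the test in the comparisons below, while IL31RA and IL21R did not in any of the 8 comparisons.

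The first 3 comparisons set a group against the basal diet, and they share the L − N libraries. A difference was called where the adjusted p was under 0.05 in edgeR's quasi-likelihood test across 15351 genes and the absolute log2 fold change was above 1. In H + N against L − N, 3 of 55 tested members met both criteria (5.45%, against 3.58% of all tested genes), with IL6ST and IL11RA higher and IL4R lower. In L + N against L − N it was 1 of 55 (against 3.99% of all genes), IL6ST, which was higher. In H − N against L − N it was 3 of 55 (against 2.91% of all genes), with IL11RA higher and IL10RA and IL10 lower. By adjusted p alone the counts were 4 (7.97% of all genes), 2 (9.6%) and 5 (5.27%), which added IL13RA1 in both NCG groups and IL6R and IL1RAP in H − N. The share of members by adjusted p alone was thus below that of all genes in H + N and L + N and above it in H − N (9.09%), in counts too small to set the family apart. Across all 8 comparisons 8 members passed the adjusted p at least once, 7 receptors and the ligand IL10, and 47 did not. Without L − N replicate 1 the counts by both criteria were 5, 3 and 5 in H + N, L + N and H − N, beside 6.09%, 5.85% and 7.19% of all genes, and without L − N replicate 3 they were 0, 0 and 0, beside 0.0257%, 0.918% and 0.0385%. On the compared groups alone they were 0, 1 and 0, beside 0.585%, 3.58% and 0.0203% of all genes.

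**Figure D2:**
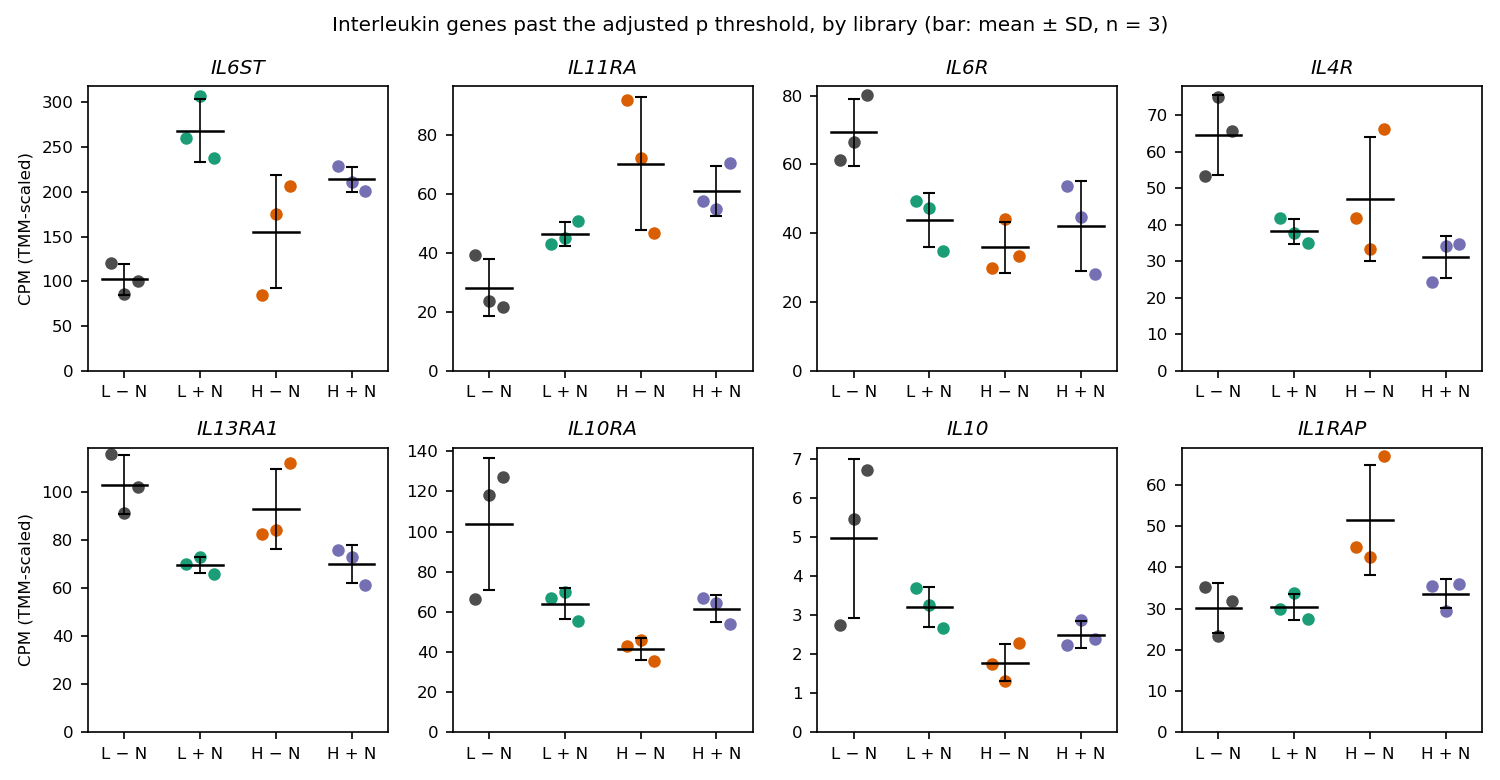
CPM of the 8 interleukin genes with an adjusted p under 0.05 in at least 1 comparison, 1 panel a gene, with a point for each of the 12 libraries and bars for each group's mean ± SD (n = 3). All 9 libraries of the other groups lay above L − N for IL11RA and below it for IL6R, while IL10RA and IL10 were spread within L − N itself.

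Over the 55 members the median was 0.17 in H + N, 0.13 in L + N and 0.19 in H − N against L − N, beside 0.02, −0.02 and 0.03 over all tested genes. The number of members with a positive value was 34, 34 and 33 of 55, beside 51.7%, 47.7% and 53.5% of all tested genes. The groups did not overlap for 11 members in H + N against L − N (28% of all genes), 16 in L + N (35.3%) and 10 in H − N (25.4%). These are 20.0%, 29.1% and 18.2% of the 55 members.

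The chains that read interleukins 6 and 11 moved in both directions. IL6ST (gene 100037294, chromosome 16, 35101304 to 35151832, minus strand) measured 121, 85.8 and 101 CPM in the L − N libraries and 260.4, 307 and 238 CPM in L + N. It measured 84.5, 176 and 207 CPM in H − N and 229, 211 and 201 CPM in H + N. Every library with NCG lay above every L − N library, and the H − N libraries ran from below the L − N range to the level of H + N. The log2 fold change against L − N was 1.39 (SE 0.268, adjusted p = 0.0129) in L + N and 1.06 (SE 0.266, adjusted p = 0.0375) in H + N, and 0.60 (SE 0.265, adjusted p = 0.189) in H − N, which did not pass. In L + N the adjusted p rose to 0.0559 to 0.0603 without L − N replicate 3 or L + N replicate 2 (log2 fold change 1.28 to 1.38). In H + N it rose to 0.0620 to 0.123 without L − N replicate 2 or 3 or H + N replicate 1, 2 or 3 (log2 fold change 0.95 to 1.10).

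IL11RA (gene 100524166, chromosome 10, 32138984 to 32149315, minus strand) is the binding chain for interleukin-11, a cytokine needed for decidualization in mice. It measured 39.3, 23.8 and 21.5 CPM in L − N and 43.0, 44.9 and 50.8 CPM in L + N. In H − N it measured 91.8, 72.1 and 46.8 CPM and in H + N 57.5, 54.8 and 70.4 CPM. All 9 libraries of the other groups were above the highest L − N library, and the H − N mean of 70.2 ± 22.6 CPM (SD, n = 3) was the highest of the 4 groups. The log2 fold change against L − N was 1.32 (SE 0.264, adjusted p = 0.0265) in H − N and 1.11 (SE 0.263, adjusted p = 0.0313) in H + N. In L + N it was 0.71 (SE 0.261, adjusted p = 0.106), which did not pass. The adjusted p in H − N was 0.0553 to 0.108 without L − N replicate 2 or 3 or H − N replicate 1 or 2 (log2 fold change 1.08 to 1.30), and in H + N 0.0837 to 0.122 without L − N replicate 2 or 3 or H + N replicate 1 or 3 (log2 fold change 0.95 to 1.13).

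IL6R (gene 399522, chromosome 4, 95322426 to 95381393, minus strand), the binding chain for interleukin-6, lay the other way. It measured 61.4, 66.5 and 80.2 CPM in L − N, 49.4, 47.5 and 34.8 CPM in L + N, 30.1, 44.2 and 33.5 CPM in H − N and 53.7, 44.6 and 28.1 CPM in H + N. All 9 libraries outside L − N were below the lowest L − N library. The log2 fold change of H − N was −0.95 (SE 0.238, adjusted p = 0.0447), past the adjusted p and short of the fold threshold, and it was −0.66 (SE 0.236, adjusted p = 0.0998) in L + N and −0.72 (SE 0.237, adjusted p = 0.0786) in H + N. The H − N value lost the adjusted p without L − N replicate 2 or 3 or H − N replicate 1, 2 or 3 (0.0575 to 0.168, with log2 fold changes of −1.13 to −0.83).

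The balance of the shared chain and the binding chain is given as a ratio of FPKM, a description added after the values had been seen and not tested. IL6ST over IL6R was 1.59, 1.05 and 1.02 in L − N and 4.29, 5.25 and 5.55 in L + N. It was 2.28, 3.23 and 5.0 in H − N and 3.46, 3.85 and 5.82 in H + N, so that 9 of 9 libraries outside L − N had a higher ratio than any L − N library. IL11RA over IL6R was 1.19, 0.666 and 0.500 in L − N against 1.62, 1.77 and 2.72 in L + N, 5.7, 3.04 and 2.6 in H − N and 2.0, 2.29 and 4.68 in H + N.

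The ligands of these receptors were scarce. IL6 ranged from 0.654 to 2.95 CPM with a log2 fold change of −0.34 (SE 0.539, adjusted p = 0.725) in H + N against L − N. IL11 was counted at 11, 12 and 11 reads in L − N, 5, 6 and 2 in L + N, 5, 4 and 9 in H − N and 2, 7 and 17 in H + N. In CPM all libraries of L + N and H − N lay below those of L − N, and the log2 fold change was −1.56 (SE 0.680, adjusted p = 0.164) in L + N and −0.93 (SE 0.657, adjusted p = 0.412) in H − N. IL31RA, the receptor of interleukin-31 and neighbor of IL6ST, ranged from 4.35 to 14.4 CPM. IL27RA, a binding chain that pairs with gp130, ranged from 36.3 to 58.6 CPM, with a log2 fold change of 0.02 (SE 0.201, adjusted p = 0.954) in H + N.

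Both chains of the shared receptor of interleukins 4 and 13 had lower levels in libraries with NCG. IL4R (gene 397614, chromosome 3, 19526343 to 19576792, minus strand), its signalling chain, measured 53.2, 74.9 and 65.7 CPM in L − N and 41.8, 37.8 and 34.9 CPM in L + N. In H − N it measured 41.9, 33.3 and 66.1 CPM and in H + N 24.5, 34.2 and 34.6 CPM. All 6 libraries with NCG were below all 3 L − N libraries. So were H − N replicates 1 and 2, whereas H − N replicate 3 was within the L − N range. The range of H − N overlapped those of both NCG groups. The log2 fold change against L − N was −1.05 (SE 0.239, adjusted p = 0.0288) in H + N, −0.76 (SE 0.237, adjusted p = 0.0671) in L + N and −0.46 (SE 0.236, adjusted p = 0.263) in H − N. The first of these had an adjusted p of 0.0604 to 0.103 without L − N replicate 2 or 3 or H + N replicate 1 or 3 (log2 fold change −1.14 to −0.92).

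IL13RA1 (gene 397615, chromosome X, 97300960 to 97353754, plus strand), which pairs with IL4R, measured 116, 91.3 and 102 CPM in L − N and 82.2, 83.9 and 112 CPM in H − N. It measured 70.1, 72.7 and 65.9 CPM in L + N and 75.6, 73.0 and 61.1 CPM in H + N. The 6 libraries with NCG lay below the 6 without. The log2 fold change against L − N was −0.56 (SE 0.145, adjusted p = 0.0346) in L + N and −0.56 (SE 0.145, adjusted p = 0.0409) in H + N, smaller than the fold threshold. In H − N it was −0.15 (SE 0.144, adjusted p = 0.558). The adjusted p of L + N was 0.0676 to 0.118 without L − N replicate 1 or 3 or L + N replicate 1, 2 or 3 (log2 fold change −0.60 to −0.47), and that of H + N was 0.0559 to 0.121 without any 1 of the 6 libraries (log2 fold change −0.64 to −0.47). The ligands IL4 and IL13 had at most 2 reads in any library.

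Some markers of other cell types also differed between the groups. Of 4 endothelial markers, PECAM1 was lower with NCG over both fiber levels at −0.74 (SE 0.138, adjusted p = 0.0118), in L + N at −1.09 (SE 0.196, adjusted p = 0.0110) and in H + N at −0.78 (SE 0.195, adjusted p = 0.0374), and CDH5 was lower in L + N at −0.69 (SE 0.179, adjusted p = 0.0349). Their sum was 644 to 1059 CPM in the 6 libraries with NCG and 944 to 1439.9 CPM in the 6 without. Of 4 smooth muscle markers, ACTA2 was lower in L + N at −1.76 (SE 0.445, adjusted p = 0.0329). All 4 had negative values in each comparison with L − N, where L − N replicate 1 had the highest sum. Of 6 stromal markers, VIM alone passed the adjusted p against L − N, and it was lower. Its log2 fold change was −0.88 (SE 0.187, adjusted p = 0.0182) for L + N and −1.23 (SE 0.188, adjusted p = 0.0136) for H + N. For H − N it was −1.61 (SE 0.190, adjusted p = 0.0118). The stromal list did not fall with VIM. Positive values were held by 5 of 6 markers for L + N (median 0.19), 4 for H + N (0.29) and 3 for H − N (−0.004). The mean stromal sum was lowest for L − N, at 19200 CPM, although the group ranges overlapped. The part of all these markers in the values of IL4R and IL13RA1 was not tested.

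Interleukin-10 and its binding chain were lower with fiber alone. IL10 (gene 397106, chromosome 9, 67400727 to 67405941, minus strand), an anti-inflammatory cytokine, measured 2.74, 5.46 and 6.72 CPM in L − N and 1.76, 1.32 and 2.28 CPM in H − N. It measured 3.69, 3.26 and 2.68 CPM in L + N and 2.24, 2.88 and 2.39 CPM in H + N. IL10RA (gene 100525654, chromosome 9, 45310527 to 45324557, plus strand), the chain that binds it, measured 66.3, 118 and 127 CPM in L − N and 43.3, 45.8 and 35.6 CPM in H − N. In L + N it measured 67.2, 70.0 and 55.3 CPM and in H + N 66.7, 64.4 and 54.0 CPM. For both genes L − N replicates 2 and 3 were above all other libraries, while L − N replicate 1 lay inside the range of the other groups.

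In H − N against L − N the log2 fold change of IL10RA was −1.32 (SE 0.219, adjusted p = 0.0192) and that of IL10 was −1.47 (SE 0.362, adjusted p = 0.0425). For H + N they were −0.75 (SE 0.217, adjusted p = 0.0554) and −0.98 (SE 0.354, adjusted p = 0.101), and for L + N −0.70 (SE 0.216, adjusted p = 0.0654) and −0.63 (SE 0.350, adjusted p = 0.270), none of which passed in edgeR. DESeq2 called IL10 in H + N (−1.003, adjusted p = 0.0436), and edgeR did without L − N replicate 1 (−1.28, adjusted p = 0.0289). IL10RA in H − N lost the adjusted p without L − N 3 (−1.15, adjusted p = 0.0872) and without H − N 1 (−1.35, adjusted p = 0.0647). IL10 lost it without L − N replicate 2 or 3 or H − N replicate 1, 2 or 3 (0.0720 to 0.169, with log2 fold changes of −1.68 to −1.19). IL10RB, the signalling chain shared with interleukin-22 and lambda interferon receptors, ranged from 11.8 to 30.6 CPM, with a log2 fold change of −0.80 (SE 0.262, adjusted p = 0.0769) in H + N.

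Macrophage markers moved with these 2 genes. All 9 markers were above the floor in every library, and the 3 H − N libraries had sums of 941, 984 and 684 CPM, beside 1639, 1478 and 1149 CPM in L + N and 1358, 1358 and 1072 CPM in H + N. In H − N against L − N, 7 of the 9 passed the test and were lower, among them CD163 at −2.02 (SE 0.416, adjusted p = 0.0279), C1QA at −1.75 (SE 0.327, adjusted p = 0.0229) and CSF1R at −1.66 (SE 0.307, adjusted p = 0.0225). In H + N it was 4 of 9 and in L + N 2 of 9, all lower. Endometrial markers moved the other way, with 3 of 5 higher in H + N, 2 in L + N and 2 in H − N. The part of macrophage or endometrial marker content in the values of IL10, IL10RA and the receptors above was not tested.

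**Figure D3:**
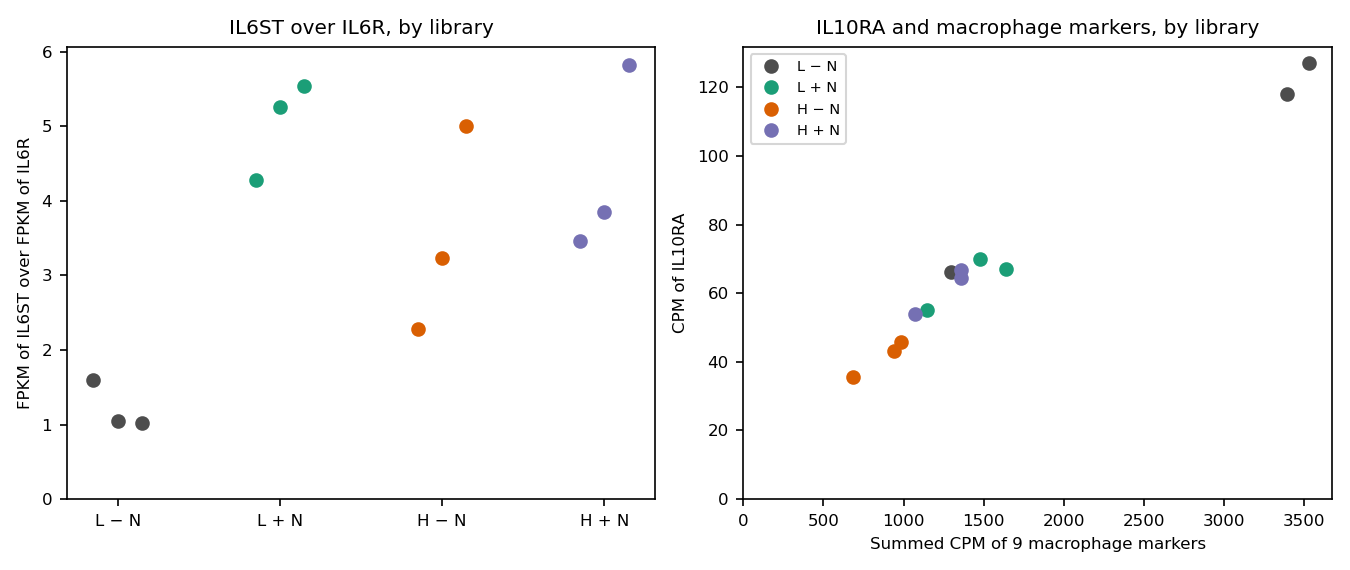
Left, the FPKM ratio of IL6ST to IL6R in each of the 12 libraries by group. Right, CPM of IL10RA against the summed CPM of 9 macrophage markers, 1 point a library, where L − N replicates 2 and 3 stand apart at the upper right with marker sums of 3395 and 3531 CPM.

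The interleukin-1 family held abundant receptors, and 1 of its members, IL1RAP, passed the adjusted p in edgeR without meeting the fold threshold. DESeq2 called IL1RL2 in H − N against L − N. IL1RAP (gene 100628318, chromosome 13, 127933239 to 128071984, plus strand), the accessory chain, measured 35.2, 23.3 and 32.0 CPM in L − N and 45.0, 42.6 and 66.9 CPM in H − N, with no overlap. It measured 29.9, 33.9 and 27.4 CPM in L + N and 35.6, 29.5 and 35.9 CPM in H + N. The log2 fold change of H − N was 0.77 (SE 0.201, adjusted p = 0.0497), past the adjusted p and short of the fold threshold, and the adjusted p was 0.0611 to 0.147 without L − N replicate 2 or 3 or H − N replicate 1, 2 or 3 (log2 fold change 0.54 to 0.89). With other size factors it was 0.0545, and without the filter 0.0525. In H + N the log2 fold change was 0.16 (SE 0.200, adjusted p = 0.655). All 7 epithelial markers also had positive values in H − N against L − N (median 0.56, beside 0.03 over all genes). Of them CDH1 passed the adjusted p, at 0.83 (SE 0.172, adjusted p = 0.0279). Their sum was 1802, 1493 and 2229 CPM in H − N and 978 to 1436 CPM in the other groups. The part of epithelial marker content in the value of IL1RAP was not tested.

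IL1R1 ranged from 120.2 to 189 CPM over the 12 libraries, and its log2 fold change in H + N against L − N was −0.20 (SE 0.151, adjusted p = 0.432). IL33 measured 84.6, 36.2 and 53.7 CPM in L − N, 105, 98.4 and 69.3 CPM in L + N, 43.4, 75.0 and 131 CPM in H − N and 88.9, 79.9 and 52.2 CPM in H + N. The 4 groups overlapped. Its receptor IL1RL1 was high in single libraries, at 18.4, 2.13 and 5.44 CPM in L − N and 1.35, 2.36 and 15.6 CPM in H − N, against 1.63 to 10.02 CPM in the NCG groups. The decoy receptor IL1R2 likewise measured 0.933, 0.555 and 11.0 CPM in H − N, and 0.652 to 5.68 CPM in the other 9 libraries. H − N replicate 3 was high for both of them, and its summed neutrophil markers were 145 CPM against 4.02 to 70.0 CPM in the other 11. L − N replicate 1, the highest library for IL1RL1, had a neutrophil sum of 7.07 CPM. Mast cell and eosinophil markers summed to 741 CPM in H − N replicate 3 and 449 CPM in L − N replicate 1. In the other libraries that sum was 140 to 397 CPM. A link between these values was not tested.

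IL18 was 11.14, 19.3 and 20.5 CPM in L − N, 16.3, 15.1 and 6.93 CPM in L + N, 10.4, 9.71 and 9.72 CPM in H − N and 12.3, 11.8 and 10.2 CPM in H + N. Its log2 fold change of −0.77 (SE 0.308, adjusted p = 0.153) in H − N did not pass. IL18R1, its receptor chain, had 0.42 (SE 0.170, adjusted p = 0.134) in L + N and IL18BP, its soluble inhibitor, 0.58 (SE 0.247, adjusted p = 0.155). Both were higher in every L + N library than in L − N, without passing the test, and IL18BP overlaps RNF121 and NUMA1. IL1A ranged from 2.74 to 15.0 CPM and IL1B from 0.439 to 2.48 CPM, with the highest and lowest libraries mixed among the groups. No gene of the deposited table carried the symbol IL1RN, the interleukin-1 receptor antagonist, so its level is not given.

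Apart from IL4R, described above, edgeR called 0 members of the gamma chain family, and DESeq2 called IL7 in L + N against L − N (1.03, adjusted p = 0.0154). IL7, a survival factor for lymphocytes, measured 2.74, 2.19 and 2.69 CPM in L − N, 5.05, 6.0 and 4.64 CPM in L + N, 3.68, 4.58 and 6.97 CPM in H − N and 4.42, 2.77 and 4.66 CPM in H + N. All 9 other libraries were above L − N, at log2 fold changes in edgeR of 1.04 (SE 0.309, adjusted p = 0.0562) in L + N, 0.99 (SE 0.309, adjusted p = 0.0837) in H − N and 0.63 (SE 0.309, adjusted p = 0.209) in H + N. Its receptor chain IL7R measured 8.21, 25.1 and 8.66 CPM in L − N and 5.86 to 12.6 CPM elsewhere, so that L − N replicate 2 stood alone. Its log2 fold change in H − N was −1.03 (SE 0.372, adjusted p = 0.122), and without that library it was −0.30, adjusted p = 0.459.

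IL2RG ranged from 12.4 to 38.8 CPM, IL2RB from 18.5 to 49.0 CPM and IL2RA, the high-affinity chain of activated T cells, from 2.62 to 6.58 CPM. Of these IL2RA was higher in all 3 libraries of L + N and of H + N than in L − N, at 0.72 (SE 0.261, adjusted p = 0.102) and 0.42 (SE 0.262, adjusted p = 0.321). IL15, which supports uterine NK cells, ranged from 6.65 to 12.4 CPM and its receptor IL15RA from 2.29 to 9.45 CPM. The value of IL15RA in H − N against L − N was 1.13 (SE 0.473, adjusted p = 0.168). The 8 T cell markers summed to 81.4, 219 and 131 CPM in L − N and 123 to 211 CPM elsewhere.

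In the interleukin-12 and interleukin-17 families edgeR called 0 members in the 8 comparisons, while DESeq2 called IL12RB2 in H + N and IL25 in L + N against L − N. IL12RB2, a chain of the interleukin-12 receptor, measured 1.66, 3.07 and 2.42 CPM in L − N and 3.69, 3.59 and 9.44 CPM in H + N. The log2 fold change was 1.22 (SE 0.435, adjusted p = 0.0973), and it was 0.61 without H + N replicate 3. IL17RA ranged from 25.3 to 54.1 CPM, IL17RC from 8.06 to 13.1 CPM and IL17RD, a chain that also restrains fibroblast growth factor signalling, from 56.1 to 138 CPM. Their log2 fold changes in H + N against L − N were −0.28, 0.21 and −0.15. IL17RB, a receptor chain for interleukin-25, had 1.17 (SE 0.601, adjusted p = 0.229) in L + N, where its groups did not overlap. IL16, a chemoattractant for CD4+ cells, ranged from 8.85 to 20.0 CPM and IL34, a ligand of CSF1R, from 7.23 to 17.6 CPM.

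**Figure D4:**
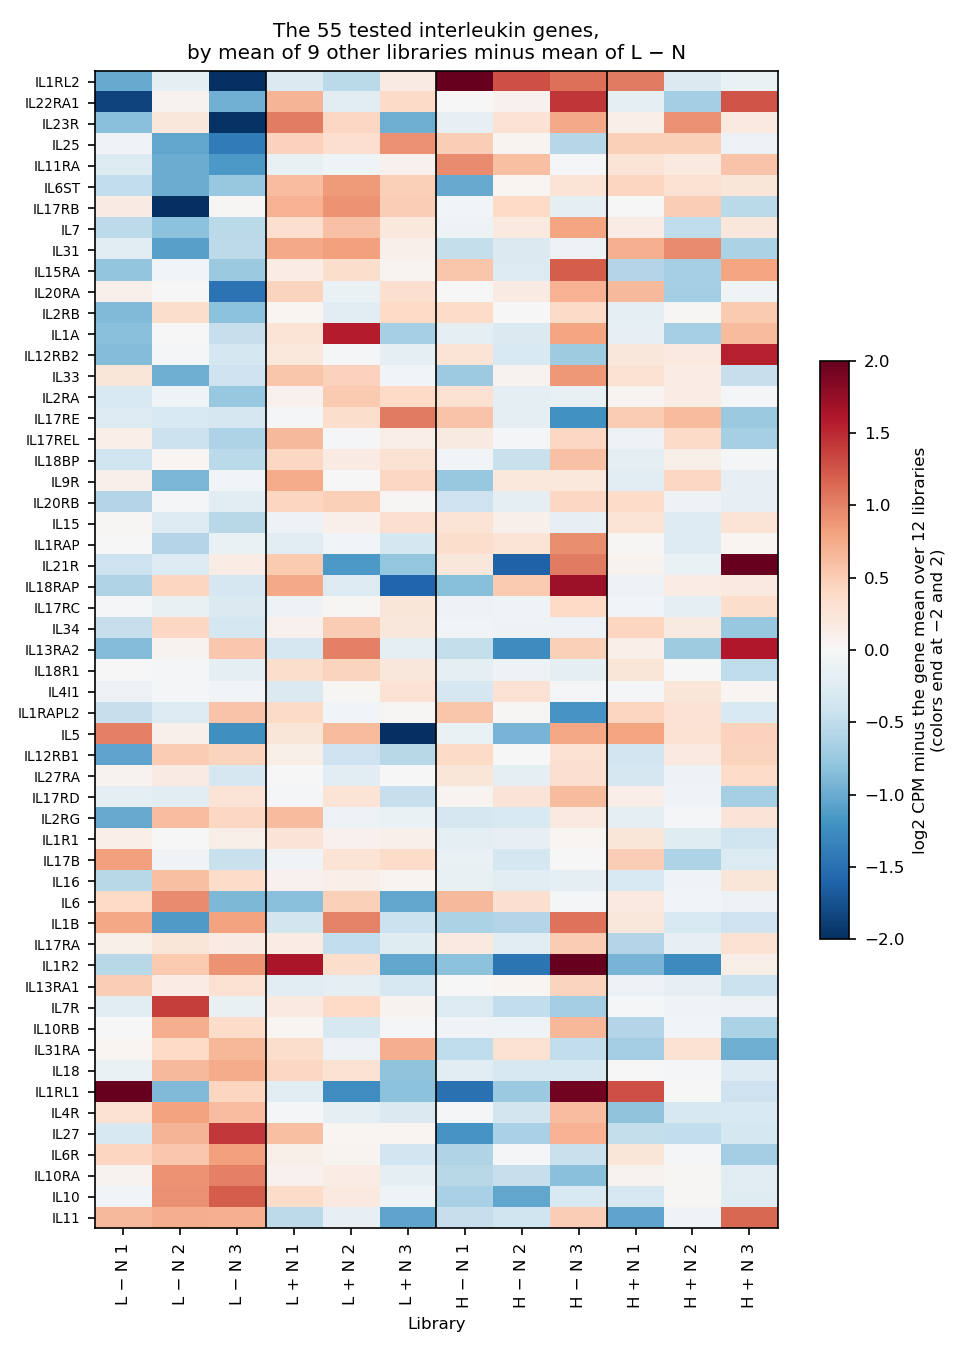
Log2 CPM of the 55 tested interleukin genes in the 12 libraries, each gene centered on its mean over the libraries and ordered by the mean of the 9 other libraries minus that of L − N (colors end at −2 and 2). The L − N columns differ among themselves, with replicates 2 and 3 above replicate 1 for IL10RA and replicate 2 alone high for IL7R.

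The factorial comparisons asked what fiber and NCG did over both levels of the other. For NCG, the average of both supplemented groups minus that of both unsupplemented groups, 0 of 55 members met both criteria (against 1.8% of all genes), 3 passed the adjusted p (7.27% of all genes) and 7 had an unadjusted p under 0.05 (23.6%). DESeq2 called 1, IL31, beside 1.97% of all genes. Those past the adjusted p were IL6ST at 0.92 (SE 0.188, adjusted p = 0.0163), IL13RA1 at −0.49 (SE 0.102, adjusted p = 0.0180) and IL4R at −0.68 (SE 0.168, adjusted p = 0.0350). IL6ST passed in all 12 fits that left out 1 library, at log2 fold changes of 0.78 to 1.05. IL13RA1 missed the threshold without L + N 3 (−0.46, adjusted p = 0.0515). IL4R missed it without L − N replicate 2 or 3 or L + N replicate 1, 2 or 3 or H − N replicate 1 or H + N replicate 1 (0.0539 to 0.0775, with log2 fold changes of −0.72 to −0.60). With 1 library left out, 1 member met both criteria without L − N replicate 1 (IL25), H − N replicate 3 (IL6ST) or H + N replicate 3 (IL31). IL13RA1 was the 1 member whose 6 libraries with NCG did not overlap the 6 without (3.99% of all genes).

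For fiber, the average of both high-fiber groups minus that of both low-fiber groups, 0 of 55 members met both criteria (against 0.0261% of all genes), 0 passed the adjusted p (0.0521%) and 9 had an unadjusted p under 0.05 in edgeR (19.5%). DESeq2 called 1, IL1RL2, beside 1.66% of all genes. The smallest adjusted p values belonged to IL11RA at 0.86 (SE 0.184, adjusted p = 0.0678), IL10RA at −0.69 (SE 0.153, adjusted p = 0.0737) and IL10 at −0.92 (SE 0.253, adjusted p = 0.105). Without L − N replicate 1, IL10 and IL11RA met both criteria, beside 2.13% of all genes.

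The interaction, the effect of NCG at high fiber minus its effect at low fiber, gave 0 of 55 by either rule (against 0% of all genes), with 7 members at an unadjusted p under 0.05 (12.8%) and 1 called by DESeq2, IL10RA, beside 1.02% of all genes. Without L − N replicate 1, edgeR called IL10RA too, beside 2.22% of all genes. With all libraries IL10RA had 1.26 (SE 0.306, adjusted p = 0.254) and IL7 −1.40 (SE 0.432, adjusted p = 0.277). IL6ST had −0.93 (SE 0.373, adjusted p = 0.341), and IL11RA had −0.92 (SE 0.367, adjusted p = 0.339).

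H + N was also set against each single treatment. Against H − N, 0 of 55 members passed by either rule (against 0% of all genes), 6 had an unadjusted p under 0.05 (8.67%) and DESeq2 called 0. The smallest p values were those of IL1RAP at −0.61 (SE 0.200, adjusted p = 0.474), IL13RA1 at −0.41 (SE 0.145, adjusted p = 0.487) and IL10RA at 0.57 (SE 0.217, adjusted p = 0.536). The groups did not overlap for 5 members (13% of all genes). Against L + N, 0 passed by either rule (against 0% of all genes), 1 had an unadjusted p under 0.05 (4.68%), IL18R1 at −0.40 (SE 0.170, adjusted p = 0.910), and DESeq2 called 0. The groups did not overlap for 7 members (11% of all genes). The log2 fold change of IL6ST between H + N and L + N was −0.33 (SE 0.263, adjusted p = 0.917).

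**Figure D5:**
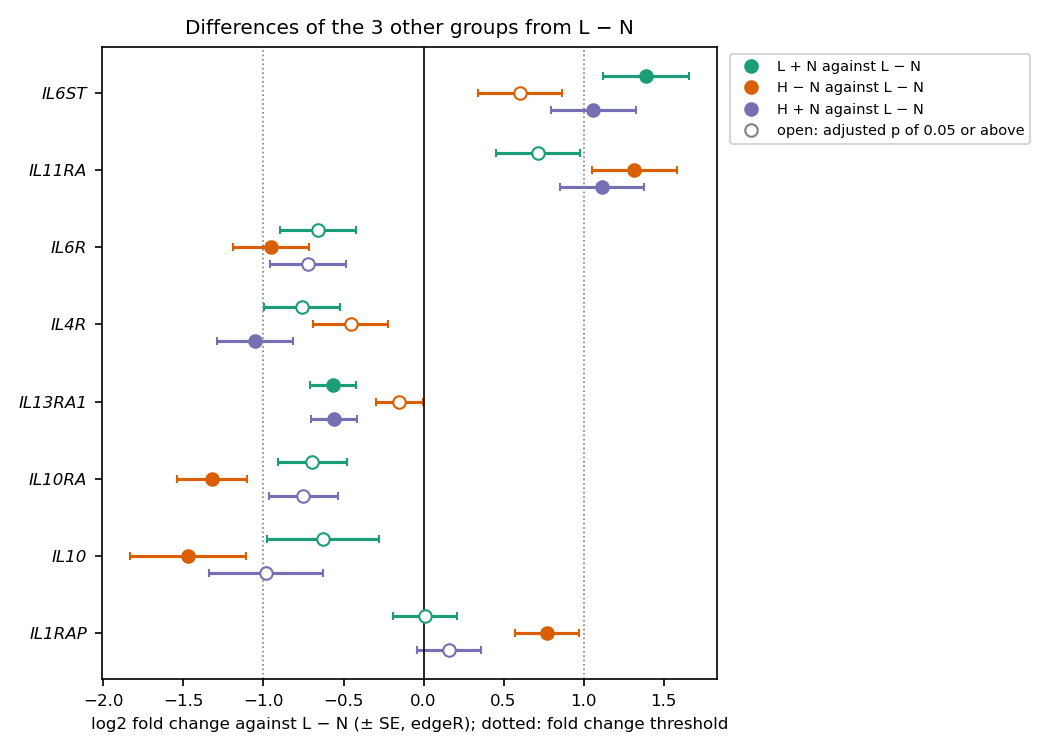
Log2 fold changes with standard errors of the 8 members with an adjusted p under 0.05 in at least 1 comparison, for each other group against L − N, with filled symbols for an adjusted p under 0.05. IL6ST and IL11RA lie right of 0 and IL4R, IL13RA1, IL6R, IL10RA and IL10 left of it in all 3 comparisons.

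Behind the receptors, partners and signal transducers without an interleukin name were read from a list of 70 genes, of which 65 were tested. In H + N against L − N, 5 of 65 passed the adjusted p (7.69%, against 7.97% of all genes in either direction), all lower, and the median log2 fold change of the list was −0.25 beside 0.02 over all genes. In L + N 2 were higher and 4 lower, beside 9.6% of all genes (median −0.14), and in H − N 3 were lower, beside 5.27% (median −0.04). IRAK2, a kinase downstream of interleukin-1 receptors, fell in all 3, at −1.34 (SE 0.357, adjusted p = 0.0443), −1.38 (SE 0.357, adjusted p = 0.0358) and −1.64 (SE 0.361, adjusted p = 0.0319). It stood at 47.8 ± 25.1 CPM (SD, n = 3) in L − N and 18.9 ± 4.82 CPM in H + N. The L − N libraries ran from 21.8 to 71.7 CPM, so that the lowest of them lay inside the range of H + N (13.7 to 23.2 CPM) and of L + N (15.2 to 22.9 CPM). TOLLIP, an inhibitor of the same receptors, fell in H + N at −0.68 (SE 0.181, adjusted p = 0.0443) and in L + N at −0.64 (SE 0.181, adjusted p = 0.0493).

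Among genes of the JAK-STAT route, PTPN6, a phosphatase of hematopoietic cells that ends cytokine signals, fell in H + N at −0.88 (SE 0.211, adjusted p = 0.0327) and in H − N at −0.85 (SE 0.211, adjusted p = 0.0436). JAK1, the kinase bound by gp130, IL4R and IL10RA, fell in L + N at −0.49 (SE 0.118, adjusted p = 0.0269), from 461 ± 66.6 CPM to 328 ± 8.47 CPM. None of the 7 STAT genes passed in these 3 comparisons. SOCS4 and SOCS6, members of the suppressor family of cytokine signalling, rose in L + N at 1.17 (SE 0.288, adjusted p = 0.0296) and 0.53 (SE 0.116, adjusted p = 0.0194), and with NCG overall at 0.85 (SE 0.202, adjusted p = 0.0292) and 0.31 (SE 0.0816, adjusted p = 0.0462). CNTFR, a binding chain that works with gp130, fell with NCG at −0.81 (SE 0.208, adjusted p = 0.0386). NFKBIE and IKBKG, regulators of NF-κB, fell, NFKBIE in H + N at −0.88 (SE 0.206, adjusted p = 0.0307) and IKBKG in L + N at −0.48 (SE 0.109, adjusted p = 0.0217). CSF1R, the receptor of IL34 and a macrophage marker, fell in H + N and H − N, at −1.35 (SE 0.304, adjusted p = 0.0284) and −1.66 (SE 0.307, adjusted p = 0.0225). In the fiber comparison, the interaction and both comparisons of H + N with a single treatment, 0 of these 65 genes passed.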

How the data were processed

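RNA of endometrium was measured in 12 libraries, 3 in each dietary group, grouped by the codes in the library titles. The deposited table covers 20674 genes on Sscrofa11.1, with a raw count and an FPKM per library. The counts deposited by the authors are not normalized, and the FPKM values deposited by the authors divide them by gene length and library total. The submitters' processing notes name fastp 0.22.0, HISAT2 2.1.0 and HTSeq 0.9.1, and the strand setting of the counting is not given in the sources used here, so genes that overlap a neighbor are uncertain. Of the 78 members, 17 overlap another gene, and none of the 8 members that passed the test does.

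Counts were tested in R 4.3.3 with edgeR 4.0.16 (quasi-likelihood fit, TMM scaling, filterByExpr on the 4 groups, which kept 15351 genes, 1 mean per group over all 12 libraries, 8 residual degrees of freedom, Benjamini-Hochberg adjustment over all genes tested). The thresholds, an adjusted p under 0.05 and an absolute log2 fold change above 1, are those of the study, which used DESeq2. CPM values are TMM-scaled and serve to compare libraries, while FPKM serves to compare genes. Depth was 14369781 to 19309724 counts per library. Replicates of a group differed with a chi-square of 23.3 to 99.8 per gene, and the biological coefficient of variation was 0.269. Over all tested genes together the spread between libraries thus exceeded counting error. For members with few reads, such as IL11 at 2 to 17 reads per library, counting error limited the precision as well.

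The members, the gene lists and the tests were chosen with earlier results of these data known. Per rule, the text names members that passed the adjusted p in any of the 8 comparisons, the 10 highest by FPKM, the 3 smallest p values of each comparison and a list by role. IL1RL2, IL25 and IL31 were named after their values were seen, as were the genes named for their position, overlap or 0 reads. Alternatives were other size factors, other filters, DESeq2 1.42.0 on the counts, the compared groups alone, adjusted p alone, the replicate number as a block, and each library left out. All 78 members matched RefSeq by gene identifier, symbol, start and end.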

Additional observations from a re-analysis of the deposited data

How the results depend on the processing

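The number of interleukin genes past both thresholds was 3 in H + N, 1 in L + N and 3 in H − N against L − N, and 0 in the other 5 comparisons. It did not change with other size factors, without the filter or with a stricter filter. By adjusted p alone it was 2 in L + N, 5 in H − N and 3 for NCG. With DESeq2 1.42.0 it was 5 in H + N, 3 in L + N, 4 in H − N, 1 for fiber, 1 for NCG and 1 for the interaction, and the share of all genes rose as well, to 5.43%, 4.9%, 5.09%, 1.66%, 1.97% and 1.02%. Fitted on the compared groups alone it was 0 in H + N and 0 in H − N, where 0.585% and 0.0203% of all genes were called, and 1 in L + N (3.58%). The cause of these differences was not tested. With 1 library left out in turn, it ranged from 0 to 5 in H + N, 0 to 3 in L + N, 0 to 5 in H − N, 0 to 2 for fiber, 0 to 1 for NCG and 0 to 1 for the interaction, and it stayed at 0 in both comparisons of H + N with a single treatment. The highest counts against L − N came without L − N replicate 1, and the counts of 0 without L − N replicate 2 or 3 or H + N replicate 1 or 3 (H + N), L − N replicate 3 or L + N replicate 2 (L + N), and L − N replicate 3 or H − N replicate 1 (H − N). Counts over all genes fell in some of these fits too, to 4 genes in H + N and 6 in H − N without L − N replicate 3, and to 0 in H − N without H − N replicate 1. The replicate numbers did not pair the libraries (correlation over 0.1 in 3 of 18 same-numbered pairs). With the number as a replicate block the counts were 2, 1 and 2 in H + N, L + N and H − N. IL6ST dropped out in H + N and IL10 in H − N, while IL6ST stayed in L + N. The block also took the adjusted p of IL13RA1 in H + N and L + N, of IL6R and IL1RAP in H − N and of IL4R for NCG above 0.05 (0.0504 to 0.0708). The 56 single-gene values were recomputed with DESeq2, other size factors, no filter, the block and libraries left out, and not on the compared groups alone or with the stricter filter. They were picked as values of named members with an unadjusted p under 0.05, and most of them missed the adjusted p in the tests reported above. Of them 0 reversed, and of 674 values 584 kept their side of the threshold, 64 lost it and 26 gained it. Only values past the adjusted p could lose it, so all 64 losses fell on that smaller part. Most of the 584 were misses that stayed misses. Among the passing values, losses ranged from 0 of 16 alternatives (IL6ST, NCG) to 8 of 10 (IL1RAP, H − N against L − N). Depth was low for IL11, at 2 to 17 reads per library, and IL1B, at 7 to 40.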

Other observations

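The 3 members IL1RL2, IL25 and IL31 outside the naming rule had values near the threshold and were picked after they were seen. IL1RL2, the receptor of the interleukin-36 ligands, measured 0.509, 1.0 and 0 CPM in L − N and 5.91, 2.98 and 2.62 CPM in H − N, with 0.922, 0.757 and 1.31 CPM in L + N and 2.5, 0.923 and 1.04 CPM in H + N. Its log2 fold change in H − N against L − N was 2.90 (SE 0.805, adjusted p = 0.0605) in edgeR, on 8, 16 and 0 reads in L − N, which depends on the prior count at such depth. IL25, an epithelial cytokine of type 2 immunity, measured 3.57, 1.76 and 1.34 CPM in L − N and 5.19, 4.77 and 7.19 CPM in L + N, with no overlap, at 1.36 (SE 0.410, adjusted p = 0.0591). IL31, a T cell cytokine of itch, measured 1.02, 0.502 and 0.806 CPM in L − N, 2.14, 2.21 and 1.31 CPM in L + N, 0.829, 0.971 and 1.1 CPM in H − N and 2.04, 2.44 and 0.736 CPM in H + N. Its log2 fold change for NCG was 1.06 (SE 0.333, adjusted p = 0.0802), with H + N replicate 3 alone among the libraries with NCG at the level of those without.

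Within the members that did not differ by the test, single libraries stood apart from the rest of their group. IL1A reached 15.0 CPM in L + N replicate 2, against 2.74 to 8.62 CPM in the other 11 libraries. IL12RB2 reached 9.44 CPM in H + N replicate 3, against 1.66 to 3.78 CPM elsewhere. Further ratios of receptor chains, given as FPKM ratios with no test, also varied by library. IL4R over IL13RA1 was 0.140, 0.249 and 0.196 in L − N and 0.0981, 0.142 and 0.172 in H + N, and IL10RA over IL10RB was 1.06, 1.13 and 1.56 in L − N and 0.720, 0.778 and 0.356 in H − N.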
